A study of Mus musculus with 5 samples.

Results

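The mouse miRNAs mmu-miR-199a-3p, mmu-miR-199b-3p, mmu-miR-199a-5p, mmu-miR-199b-5p, mmu-miR-214-3p, mmu-miR-21a-5p, mmu-miR-22-3p, mmu-miR-143-3p and mmu-miR-143-5p, a set known from mesenchymal cells and fibroblasts, were followed across 5 cell cultures, and are written below without the species prefix. They were chosen by the name of their spots, with earlier results of these data known. The 9 miRNAs occupied 8 of the 1265 mouse miRNA spots, because miR-199a-3p and miR-199b-3p share 1 spot. Each culture's total RNA carried the label Hy5 and filled 1 single-colour array, so each value below is 1 spot on 1 array with no replicate. The embryoid body (EB) was grown from the wild-type embryonic stem (ES) line V6.5, as floating aggregates left without the cytokine LIF for 1 week. PKM1 KI ES carries a knock-in of PKM1, which makes one form of pyruvate kinase, an enzyme of glycolysis. Sox2 in 2TS22c and Oct3/4 in ZHBTc4 are known to be under the control of a drug that shuts them off, and the labels name no drug here. V6.5 ES is the wild-type line, and all 4 ES cultures were kept with LIF. Their parent strains and clone numbers are not given in the sources used here.

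A miRNA is a short RNA that guides a silencing complex to messenger RNAs, mainly by pairing through its seed, the bases 2 to 8 from the 5′ end. miR-199a and miR-214 are cut from one long noncoding transcript, Dnm3os, which is needed for normal skeletal development in mice. miR-21 is abundant in fibroblasts and in most differentiated cells, where Pdcd4 is among its known targets. miR-22 is widespread and best known from heart and skeletal muscle and from blood stem cells. miR-143 is made together with miR-145 and marks smooth muscle and fibroblasts, and in human ES cells miR-145 is known to repress OCT4, SOX2 and KLF4. None of these miRNAs is counted among the ES-specific ones, which in the mouse belong mainly to the miR-290 cluster.

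The mature sequences below show which members are identical, which share a seed and which come from one precursor; they are from RefSeq (GRCm38.p6), 5′ to 3′, with the seed in capitals, for 6 of the 9 miRNAs.

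miR-199a-3p: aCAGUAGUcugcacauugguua
miR-199b-3p: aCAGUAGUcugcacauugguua
miR-199a-5p: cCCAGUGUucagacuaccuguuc
miR-214-3p: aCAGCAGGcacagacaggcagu
miR-21a-5p: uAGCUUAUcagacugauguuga
miR-22-3p: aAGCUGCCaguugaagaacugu

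These 6 miRNAs hold 5 distinct seeds. miR-199a-3p and miR-199b-3p are the same 22 bases, so the array cannot separate the 3 genes that encode them. miR-199a-3p lies at chr1:162217883-162217904 on the plus strand in Mir199a-2 and at chr9:21496498-21496519 on the minus strand in Mir199a-1, and miR-199b-3p lies at chr2:32318524-32318545 on the plus strand in Mir199b. miR-199a-5p, of 23 bases, comes from the opposite arm of both miR-199a precursors, at chr1:162217844-162217866 and chr9:21496537-21496559. miR-214-3p lies at chr1:162223438-162223459 on the plus strand, miR-21a-5p at chr11:86584120-86584141 on the minus strand and miR-22-3p at chr11:75463772-75463793 on the plus strand.

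The 2 precursors that lie inside Dnm3os, a long noncoding gene at chr1:162217623-162225550, are printed with their mature arms in capitals, since 3 of the members are cut from them.

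Mir199a-2: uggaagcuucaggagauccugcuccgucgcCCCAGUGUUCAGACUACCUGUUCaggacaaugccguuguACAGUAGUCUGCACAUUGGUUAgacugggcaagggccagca
Mir214: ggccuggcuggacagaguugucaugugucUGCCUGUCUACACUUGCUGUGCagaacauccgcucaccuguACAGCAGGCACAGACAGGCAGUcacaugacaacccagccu

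Mir199a-2 spans chr1:162217814-162217923 and Mir214 spans chr1:162223368-162223477, with 5444 bases between them, and both also lie within the span of the protein-coding gene Dnm3. The other members lie within genes too: Mir199a-1 within Dnm2, Mir199b within Dnm1, Mir21a within Vmp1 and Mir22 within the noncoding gene Mir22hg.

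Intensity is the median brightness of a spot's pixels in scanner units. A spot counted as detected when it was brighter than a limit set 2 SD above the average of 1664 blank spots, namely 40.3 on the EB array, 59.5 on PKM1 KI ES, 59.9 on 2TS22c ES, 61.6 on ZHBTc4 ES and 59.9 on V6.5 ES. Blank spots had an SD of 3.57 to 5.91 units. Negative control spots gave a higher limit, of 50.3 on EB, 73.7 on PKM1 KI ES, 64.6 on 2TS22c ES, 68.5 on ZHBTc4 ES and 72.2 on V6.5 ES. The detector gain was 43 for EB, 46 for 2TS22c ES and 47 elsewhere, and ZHBTc4 ES was alone on the second of 2 chips, so for it chip and cell line cannot be told apart. The 2TS22c ES and ZHBTc4 ES arrays stood apart from the rest: 40.1% and 41.1% of all miRNAs were detected there, against 59.3% on EB, 60.3% on PKM1 KI ES and 59.6% on V6.5 ES. Spots of the same spike control, 8 per array, varied with a coefficient of variation of 3.69% to 11.4%, and spots of the same negative control, at the dim end where many members lie, with 4.98% to 16.3%. The miR-290 cluster, the marker of the ES state, was seen at 14 of 14 spots on each array except 2TS22c ES, which had 13.

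All 8 member spots were detected on EB, PKM1 KI ES and V6.5 ES, 5 on 2TS22c ES and 6 on ZHBTc4 ES. They were dim: the brightest, miR-21a-5p, reached 317 units, while the spike controls averaged from 6005 to 12585 units per array. Under the stricter negative control limit 8 remained on EB, 7 on PKM1 KI ES, 4 on 2TS22c ES, 4 on ZHBTc4 ES and 8 on V6.5 ES. Of all 1265 mouse miRNA spots that limit left 496 on EB, 467 on PKM1 KI ES, 387 on 2TS22c ES, 367 on ZHBTc4 ES and 472 on V6.5 ES.

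The shared spot of miR-199a-3p and miR-199b-3p, the arm that carries the CAGUAGU seed above, had an intensity of 137 in EB, 96 in PKM1 KI ES, 43 in 2TS22c ES, 60 in ZHBTc4 ES and 177 in V6.5 ES. It was high in V6.5 ES and EB, intermediate in PKM1 KI ES and below the detection limit in 2TS22c ES and ZHBTc4 ES. Of the 8 spots it varied most, over 1.48 log2 units after normalisation (normexp background model with offset 50, then quantile normalisation, which gives the log2 values below). Its surroundings varied with it: the local background was 132 in EB, 106 in PKM1 KI ES, 46 in 2TS22c ES, 47 in ZHBTc4 ES and 135 in V6.5 ES, and an adjacent brighter spot, miR-680, had 723 units in EB, 693 in PKM1 KI ES, 167 in 2TS22c ES, 208 in ZHBTc4 ES and 543 in V6.5 ES. In PKM1 KI ES and 2TS22c ES the spot was no brighter than its own surroundings. The part of the surroundings in these values was not tested.

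miR-199a-5p, the other arm of the same precursor, had an intensity of 112 in EB, 113 in PKM1 KI ES, 64 in 2TS22c ES, 67 in ZHBTc4 ES and 154 in V6.5 ES. The order of the cultures was close to that of the 3p arm, with 2TS22c ES and ZHBTc4 ES lowest, and the 2 lowest values lay between the blank and the negative control limits. Its spot adjoins that of the 3p arm, and its local background was 85 in EB, 69 in PKM1 KI ES, 48 in 2TS22c ES, 64 in ZHBTc4 ES and 119 in V6.5 ES.

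miR-199b-5p, from a gene on another chromosome, had an intensity of 82 in EB, 77 in PKM1 KI ES, 54 in 2TS22c ES, 61 in ZHBTc4 ES and 102 in V6.5 ES, so it too was undetected in 2TS22c ES and ZHBTc4 ES. This spot lies in another block of the array, where the local background stayed between 44 and 58 units on all 5 arrays. The pixels of its ZHBTc4 ES spot were uneven, with a pixel SD of 71.5 units against 19.5 to 38.1 on the other 4 arrays.

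miR-214-3p, which Dnm3os encodes beside miR-199a, had an intensity of 140 in EB, 137 in PKM1 KI ES, 97 in 2TS22c ES, 102 in ZHBTc4 ES and 185 in V6.5 ES. It stood above both limits on all 5 arrays, again lowest in 2TS22c ES and ZHBTc4 ES by raw intensity. Its local background was 103 in EB, 67 in PKM1 KI ES, 65 in 2TS22c ES, 63 in ZHBTc4 ES and 79 in V6.5 ES. The 5p arm of the same precursor, miR-214-5p, stayed near the limit, with 46 in EB, 53 in PKM1 KI ES, 58 in 2TS22c ES, 63 in ZHBTc4 ES and 58 in V6.5 ES.

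miR-21a-5p had an intensity of 211 in EB, 317 in PKM1 KI ES, 117 in 2TS22c ES, 119 in ZHBTc4 ES and 316 in V6.5 ES. PKM1 KI ES and V6.5 ES were level and high, and 2TS22c ES and ZHBTc4 ES level and low. The EB value was taken at a lower gain; relative to the mean blank spot of its own array, miR-21a-5p was 6.36-fold in EB, 6.58-fold in PKM1 KI ES, 2.43-fold in 2TS22c ES, 2.39-fold in ZHBTc4 ES and 6.51-fold in V6.5 ES. The local background moved with the spot in the ES arrays, at 211 in PKM1 KI ES, 77 in 2TS22c ES, 84 in ZHBTc4 ES and 220 in V6.5 ES, and was 48 in EB. The opposite arm, miR-21a-3p, was detected on no array, and the related miR-21b and miR-21c were not detected either.

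miR-22-3p had an intensity of 74 in EB, 104 in PKM1 KI ES, 80 in 2TS22c ES, 90 in ZHBTc4 ES and 96 in V6.5 ES. It was detected everywhere and varied least of the 8 spots, over 0.30 log2 units. Its other arm, miR-22-5p, was detected on no array.

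miR-143-3p had an intensity of 79 in EB, 70 in PKM1 KI ES, 59 in 2TS22c ES, 67 in ZHBTc4 ES and 88 in V6.5 ES, above both limits in EB and V6.5 ES, between them in PKM1 KI ES and ZHBTc4 ES, and below the blank limit in 2TS22c ES. miR-143-5p had 64 in EB, 105 in PKM1 KI ES, 89 in 2TS22c ES, 76 in ZHBTc4 ES and 90 in V6.5 ES. By raw intensity the arms thus ran in different orders, the 3p arm highest in V6.5 ES and the 5p arm highest in PKM1 KI ES. The orders differed after normalisation too, but the 3p arm was then highest in EB (6.71 log2 units) and the 5p arm in 2TS22c ES (7.10). miR-145a-5p, the partner of miR-143, had 64 in EB, 70 in PKM1 KI ES, 60 in 2TS22c ES, 56 in ZHBTc4 ES and 70 in V6.5 ES, above both limits in EB, between the blank and negative control limits in PKM1 KI ES, 2TS22c ES and V6.5 ES, and below both in ZHBTc4 ES.

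**Figure D1:**
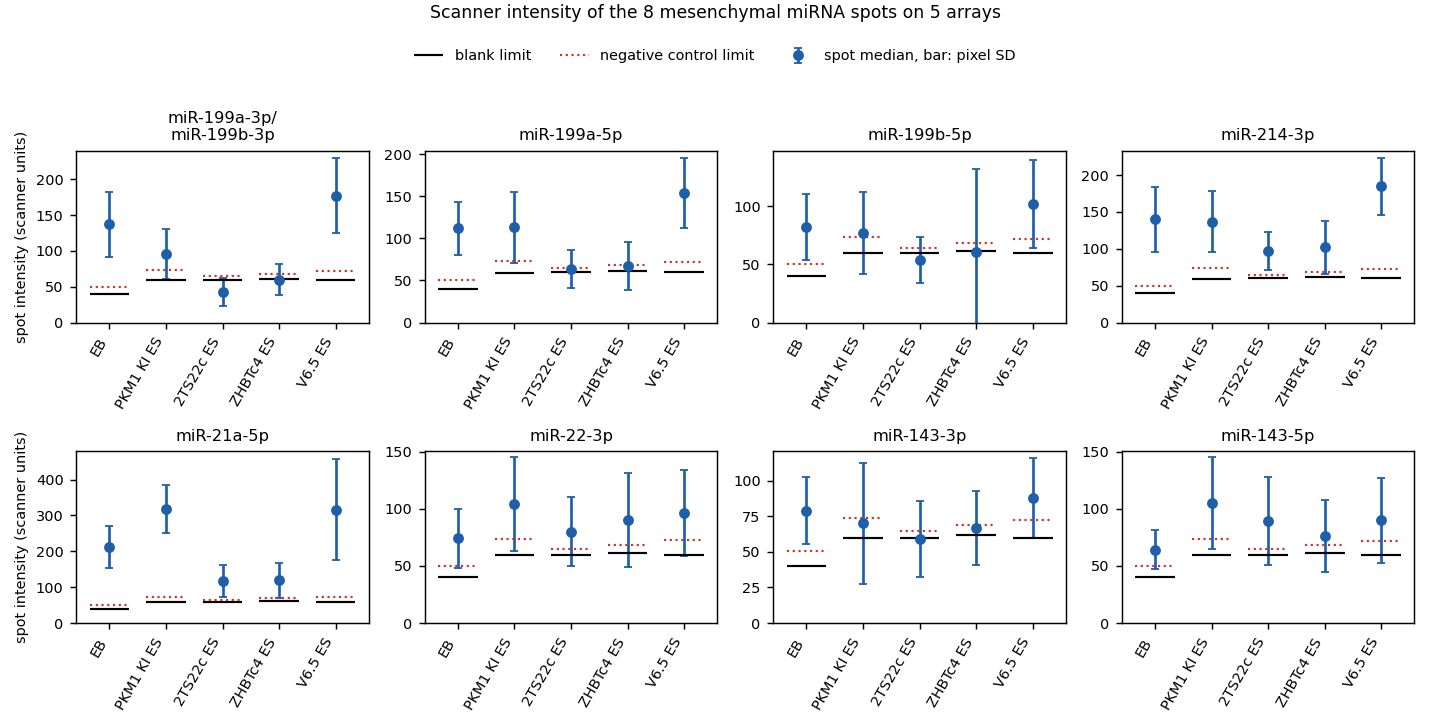
Scanner intensity (y axis, scanner units) of each member spot on the 5 arrays (x axis), 1 panel per spot; points are the median of the spot's pixels, bars the SD of the pixels of that spot (not a replicate error, cut at 0), black lines the blank limit and red dotted lines the negative control limit of each array. The 2TS22c ES and ZHBTc4 ES points of the miR-199a-3p/miR-199b-3p spot, at 43 and 60 units, lie below the blank limit, while the V6.5 ES point is at 177.

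The first comparison set the week-old EB against V6.5 ES, the line it was made from. After normalisation the members differed little: the log2 difference (EB minus V6.5 ES) was 0.08 for miR-199a-3p/miR-199b-3p, -0.05 for miR-199a-5p, 0.07 for miR-199b-5p, 0.10 for miR-214-3p, -0.13 for miR-21a-5p, 0.04 for miR-22-3p, 0.19 for miR-143-3p and -0.03 for miR-143-5p. No member was 2-fold apart, against 0.353% of all 850 miRNAs detected on either array. A total of 3 of 8 members were lower in EB, against 47.1% of all miRNAs, and the member median of 0.05 stood beside a median of 0.01 over all miRNAs. All 8 differences lay inside the range of -0.49 to 0.40 that held the middle of the distribution, from the 5th to the 95th percentile. The sign is not settled for most of them: under 1 or more of 6 other processings that alter the values 7 members changed sign, and miR-143-3p, at 0.11 to 0.54, was the exception. For miR-21a-5p the difference ran from -0.45 in the authors' deposited table to 0.64 with the local background taken off.

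The EB was also tested against the 4 ES arrays together with limma, a linear model fitted across the 959 miRNAs detected on at least 1 array. In this fit the ES spread is that between 4 different lines, and the single EB array is assumed to vary like them. The EB level of miR-199a-3p/miR-199b-3p was 7.35, against an ES mean of 6.495, a difference of 0.85 (SE 0.52). For miR-143-3p the EB level was 6.71, against an ES mean of 6.38, a difference of 0.33 (SE 0.14). The differences of the other members were 0.39 (SE 0.23) for miR-199b-5p, 0.37 (SE 0.30) for miR-199a-5p, 0.24 (SE 0.15) for miR-214-3p, 0.20 (SE 0.32) for miR-21a-5p, -0.13 (SE 0.17) for miR-22-3p and -0.23 (SE 0.23) for miR-143-5p. None passed, with a Benjamini-Hochberg adjusted p from limma of 0.99 for each of the 8, and 0 of 959 miRNAs (0.0%) were called. Without adjustment p fell under 0.05 for 15 higher and 8 lower miRNAs, and for 0 members. With spike scaling the same count was 101 higher and 0 lower, with 3 members among them (miR-143-3p, miR-199b-5p and miR-214-3p), and without the V6.5 ES array 18 higher and 8 lower, with 2 members (miR-199a-3p/miR-199b-3p and miR-199b-5p). With the local background taken off the count was 21 higher and 15 lower, with miR-21a-5p alone of the members among them. In that fit the differences of miR-199a-3p/miR-199b-3p (-0.06) and miR-214-3p (-0.24) turned negative. No member passed after adjustment in any of these fits. EB lay above every ES array for 4 of 8 members, namely the miR-199a-3p/miR-199b-3p spot, miR-199b-5p, miR-214-3p and miR-143-3p, while 18.6% of all 959 miRNAs had that order.

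The comparison of PKM1 KI ES with V6.5 ES asked what the knock-in line carries at these miRNAs. The miR-199a-3p/miR-199b-3p spot had a log2 level of 6.61 in PKM1 KI ES and 7.26 in V6.5 ES, a difference of -0.65, or 1.57-fold lower in the knock-in line. Only 7 of the 874 miRNAs detected on either array had a more negative difference, and it lay outside the range of -0.38 to 0.34 from the 5th to the 95th percentile. miR-199a-5p (-0.33), miR-199b-5p (-0.30) and miR-214-3p (-0.29) were lower within that range, as was miR-143-3p (-0.23). miR-21a-5p differed by -0.05, miR-22-3p by 0.07 and miR-143-5p by 0.15.

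In total 6 of 8 members were lower in PKM1 KI ES, against 46.1% of all miRNAs, and the member median was -0.26 beside 0.02 over all miRNAs. No member reached 2-fold, against 0.343% of all miRNAs. The 3p spot was lower under the main and those 6 other processings, by 0.65 to 1.39 on the log2 scale, and miR-199b-5p, miR-214-3p and miR-143-3p kept their sign too. miR-199a-5p was 0.05 higher with the local background taken off. In the authors' deposited table the difference was 2.62-fold for miR-199a-3p/miR-199b-3p, 2.10-fold for miR-199a-5p and 2.21-fold for miR-143-3p, where 9.61% of all miRNAs were 2-fold apart.

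**Figure D2:**
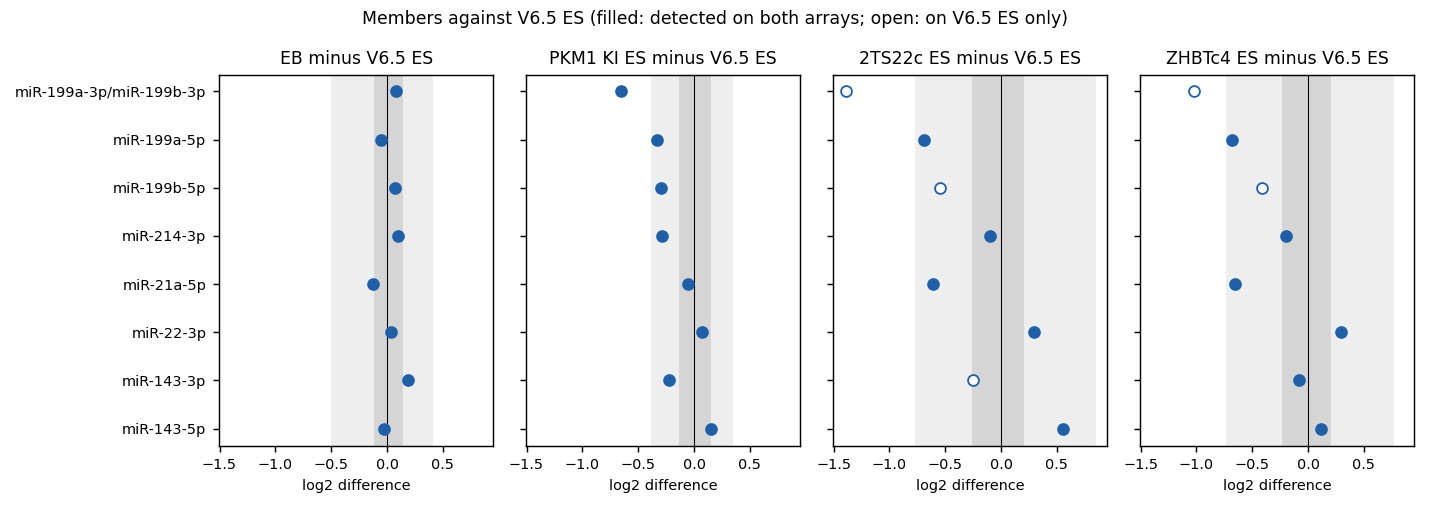
Log2 difference from V6.5 ES (x axis) of each member spot (y axis) after normexp and quantile normalisation, for EB, PKM1 KI ES, 2TS22c ES and ZHBTc4 ES from left to right; filled points were detected on both arrays, open points on V6.5 ES only, and the grey bands hold the 25th to 75th (dark) and 5th to 95th (light) percentile of all miRNAs detected on either array. The miR-199a-3p/miR-199b-3p point lies left of the light band in PKM1 KI ES (-0.65) and in both switchable lines, while all EB points lie inside it.

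The 2 switchable lines had the lowest miR-199a, miR-199b-5p and miR-21a-5p values after quantile normalisation without local background. In 2TS22c ES the miR-199a-3p/miR-199b-3p spot was undetected and at least 1.93-fold lower than in V6.5 ES, set against the lowest detected signal of the 2TS22c ES array. miR-199a-5p differed by -0.69 (1.62-fold lower) and miR-21a-5p by -0.61 (1.53-fold lower). miR-199b-5p and miR-143-3p were undetected there and at least 1.29-fold and 1.16-fold lower. In the other direction miR-143-5p differed by 0.55 (1.47-fold higher) and miR-22-3p by 0.30, and miR-214-3p differed by -0.10.

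In ZHBTc4 ES the miR-199a-3p/miR-199b-3p spot was likewise undetected and at least 1.95-fold lower than in V6.5 ES, a bound that came to 1.26-fold with the local background taken off. miR-199a-5p differed by -0.68 (1.60-fold lower), miR-21a-5p by -0.66 (1.58-fold lower), miR-214-3p by -0.20 and miR-143-3p by -0.09. miR-199b-5p was undetected and at least 1.31-fold lower, and miR-22-3p (0.29) and miR-143-5p (0.11) were higher.

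In each of these lines 6 of 8 members were lower than in V6.5 ES, against 57.7% of all miRNAs in 2TS22c ES and 56.4% in ZHBTc4 ES. No member was at least 2-fold apart, counting the bounds, where 4.98% of all miRNAs in 2TS22c ES (2.99% higher and 1.99% lower) and 4.22% in ZHBTc4 ES (2.61% higher and 1.61% lower) were. The miR-199a-3p/miR-199b-3p spot crossed that line under other processings: its bound was 2.17-fold in 2TS22c ES and 2.20-fold in ZHBTc4 ES without background correction, and 2.62-fold in 2TS22c ES and 2.67-fold in ZHBTc4 ES with offset 16. The member median was -0.40 in 2TS22c ES, beside -0.06 over all miRNAs, and -0.30 in ZHBTc4 ES, beside -0.05. Spots detected in V6.5 ES alone made up 36.9% of all miRNAs in the 2TS22c ES comparison and 35.4% in the ZHBTc4 ES comparison. Both lines lay below the other 3 arrays for 4 of 8 members, the miR-199a-3p/miR-199b-3p spot, miR-199a-5p, miR-199b-5p and miR-21a-5p, while 25.3% of all 959 miRNAs had that order.

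The spread of all differences was wide here, from -0.76 to 0.84 in 2TS22c ES and from -0.73 to 0.76 in ZHBTc4 ES between the 5th and 95th percentiles. miR-199a-5p and miR-21a-5p lay inside these ranges. The lines carried more miR-290 cluster signal at the same time: the summed intensity of its 14 spots was 15258 in 2TS22c ES and 16863 in ZHBTc4 ES, against 11120 in V6.5 ES.

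The size of these differences changed with the processing, which alters the scaling between arrays, the handling of background or both. Quantile normalisation forces the 5 arrays to one distribution, and it gave a miR-214-3p difference of -0.10 in 2TS22c ES and -0.20 in ZHBTc4 ES. Scaled to the spike control spots instead, miR-214-3p differed by -0.69 in both lines, and miR-21a-5p by -1.16 in 2TS22c ES and -1.21 in ZHBTc4 ES, while the median over all miRNAs moved to -0.20 in 2TS22c ES and -0.18 in ZHBTc4 ES. In the authors' deposited table miR-199a-5p was 5.997-fold lower in 2TS22c ES and 7.66-fold lower in ZHBTc4 ES, and miR-21a-5p was 3.17-fold lower in 2TS22c ES and 3.22-fold lower in ZHBTc4 ES, with the median over all miRNAs at -0.63 in 2TS22c ES and -0.55 in ZHBTc4 ES. With the local background taken off, the miR-199a-3p/miR-199b-3p spot was at least 1.71-fold lower in 2TS22c ES and at least 1.26-fold lower in ZHBTc4 ES, and its lowest level was then that of PKM1 KI ES, at 5.74, against 5.83 in 2TS22c ES and 6.27 in ZHBTc4 ES. In the authors' deposited table, with a missing value set to the array's lowest, that spot was 14.4-fold lower in 2TS22c ES and 10.3-fold lower in ZHBTc4 ES. With the local background taken off, miR-199a-5p differed by -0.29 in 2TS22c ES and -0.46 in ZHBTc4 ES and miR-21a-5p by -0.32 in each. The 3 miR-199 spots, miR-214-3p and miR-21a-5p had a negative measured difference in both lines under all 7 processings that alter the values. miR-22-3p changed sign with spike scaling and in the authors' table in both lines, and miR-143-5p did so in ZHBTc4 ES with spike scaling and with the local background taken off, as did miR-143-3p in ZHBTc4 ES with the local background taken off.

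**Figure D3:**
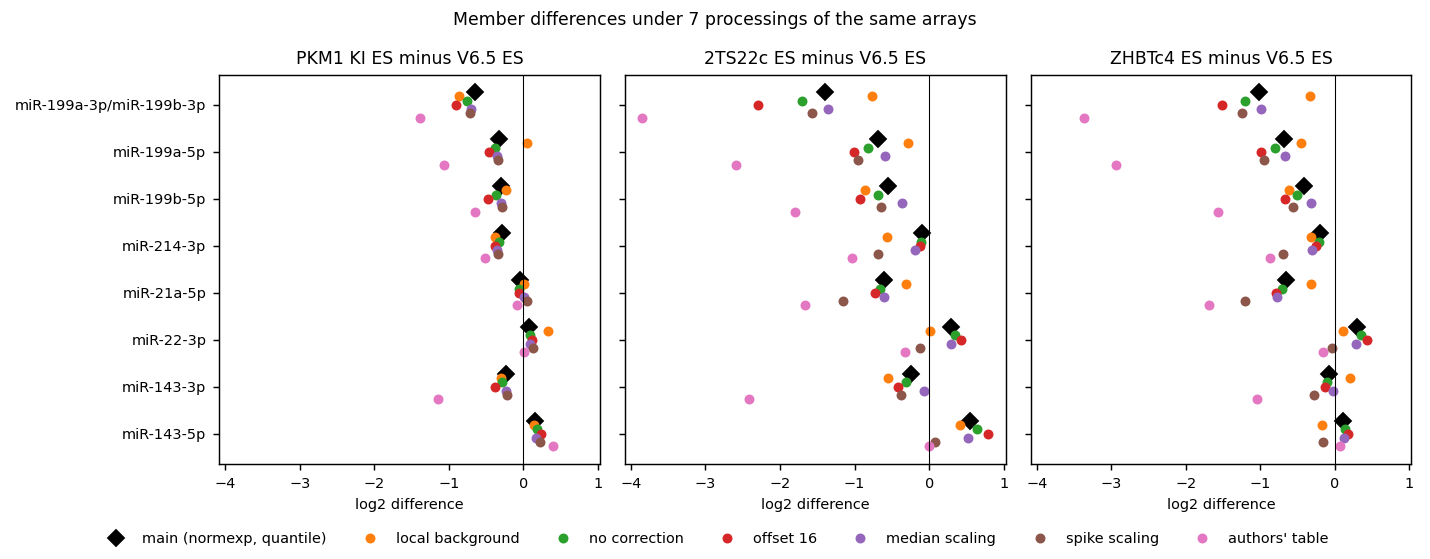
Log2 difference from V6.5 ES (x axis) of each member spot (y axis) in PKM1 KI ES, 2TS22c ES and ZHBTc4 ES from left to right, under the main processing (black diamonds) and 6 others (coloured points); spots without a value in the authors' table were set to that array's lowest value, and the seventh alternative, which alters detection only, is not drawn. The miR-199a-5p points run from -2.58 to -0.29 in 2TS22c ES, all left of 0.

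Set against each other, the 2 switchable lines differed little at the members detected in both, apart from miR-143-5p. The log2 difference of 2TS22c ES minus ZHBTc4 ES was -0.01 for miR-199a-5p, 0.10 for miR-214-3p, 0.05 for miR-21a-5p and 0.00 for miR-22-3p. The miR-199a-3p/miR-199b-3p spot and miR-199b-5p were detected in neither line, and miR-143-3p in ZHBTc4 ES only. miR-143-5p stood out with a level of 7.10 in 2TS22c ES and 6.66 in ZHBTc4 ES, a difference of 0.44, which lay above the range of -0.40 to 0.41 that ran from the 5th to the 95th percentile of 613 miRNAs; under other processings it ran from -0.06 to 0.62. No member was 2-fold apart, against 0.163% of all miRNAs. Of the 6 members detected in either line 2 were lower in 2TS22c ES, against 49.8% of all miRNAs detected in either. The PKM1 KI ES, 2TS22c ES, ZHBTc4 ES and EB comparisons all use the same V6.5 ES array, so a high or low value on it enters all 4.

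The likeness of members was measured as the root mean square difference of log2 levels over the 5 arrays, each miRNA centred on its own mean. Among the members, miR-199a-5p was nearest to miR-199b-5p (0.09 log2 units) and to miR-21a-5p (0.12), and miR-214-3p was nearest to miR-143-3p (0.09). Spots that vary little lie close by this measure whatever their order. miR-214-3p ranged over 0.38 log2 units and miR-143-3p over 0.44, against 1.48 for the miR-199a-3p/miR-199b-3p spot. How close pairs of other miRNAs lie was not measured. miR-199a-5p and the 3p spot, which holds the other arm of its precursors, were 0.29 apart, and miR-214-3p and the 3p spot 0.50. Of the genes that the 3p spot reads, Mir199a-2 alone lies in Dnm3os with Mir214, while Mir199a-1 and Mir199b lie on other chromosomes. The miR-143 arms, also of one precursor, were 0.35 apart. Outside the set the miR-199a-3p/miR-199b-3p spot, the one member with a range of at least 1 log2 unit, was most like miR-5126, miR-3077-5p and miR-346-3p, each at 0.23, out of 640 miRNAs detected on at least 3 arrays. miR-346-3p, for example, had 354 units in EB, 399 in PKM1 KI ES, 108 in 2TS22c ES, 148 in ZHBTc4 ES and 374 in V6.5 ES.

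**Figure D4:**
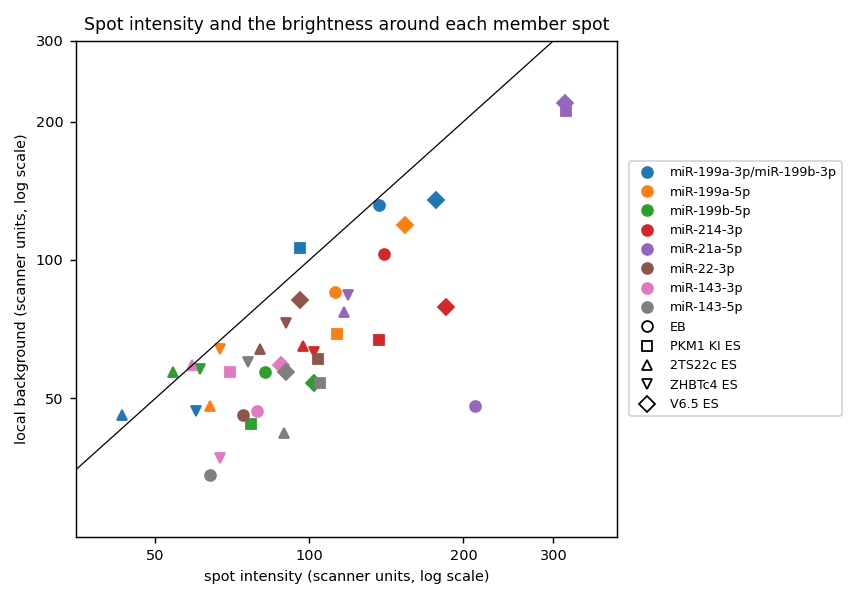
Local background (y axis, scanner units, log scale) against spot intensity (x axis, scanner units, log scale) of the 8 member spots on the 5 arrays; colours mark the spots, shapes the arrays, and the line marks equal values. The miR-199a-3p/miR-199b-3p points follow the line, with 43 units on 46 of background in 2TS22c ES and 177 on 135 in V6.5 ES, while the miR-199b-5p points keep a background of 44 to 58.

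A wider list of 24 miRNAs known from mesenchyme and fibroblasts, such as miR-24-3p, miR-29a-3p, miR-125b-5p and miR-221-3p, also serves as markers of feeder fibroblasts, cells on which ES lines are often grown; the labels mention none. On this list 20 spots were detected in EB, 17 in PKM1 KI ES, 12 in 2TS22c ES, 8 in ZHBTc4 ES and 20 in V6.5 ES. The summed intensity was 2483 units in EB, 3054 in PKM1 KI ES, 2119 in 2TS22c ES, 2161 in ZHBTc4 ES and 3615 in V6.5 ES. In EB against V6.5 ES, 11 were higher and 11 lower of 23 detected, with a median of 0.00. In PKM1 KI ES 2 were higher and 18 lower of 20, with a median of -0.18. In 2TS22c ES 11 were higher and 10 lower of 21, with a median of 0.00, and in ZHBTc4 ES 8 were higher and 12 lower of 21, with a median of -0.05. Over all miRNAs 47.1% were lower in EB (median 0.01) and 46.1% in PKM1 KI ES (median 0.02). The share lower was 57.7% in 2TS22c ES (median -0.06) and 56.4% in ZHBTc4 ES (median -0.05). Among spots detected on both arrays, the 2-fold threshold was passed by miR-29a-3p, lower in EB with 41 units against 180 in V6.5 ES. It was also passed by miR-125b-5p, lower in 2TS22c ES with 61 units against 303 in V6.5 ES. In ZHBTc4 ES miR-125b-5p had 61 units too, just below the blank limit of that array, so its drop was not particular to 2TS22c ES. These marker values moved with the member values in PKM1 KI ES, and their part in the result was not tested. In bulk RNA, fewer cells of a type and less of a miRNA per cell cannot be told apart.

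Of the 8 partner miRNAs made from the members' own precursors, clusters or families, such as miR-145a-5p, miR-21a-3p and miR-214-5p, 2 were detected in EB, 2 in PKM1 KI ES, 1 in 2TS22c ES, 1 in ZHBTc4 ES and 2 in V6.5 ES. The 6 miRNAs of epithelial cells, the miR-200 family with miR-205-5p, were higher in EB than in V6.5 ES in 6 of 6 cases, none of them 2-fold, with a median difference of 0.15 beside 0.01 over all miRNAs, of which 47.1% were lower in EB. Lists for other tissues that an EB may form were mostly dim. Of 7 muscle miRNAs 2 were detected in EB and 2 in V6.5 ES, and of 7 endoderm miRNAs 2 in EB and 2 in V6.5 ES. Of 8 blood and endothelium miRNAs 3 were detected in EB and 4 in V6.5 ES, and of 7 neural miRNAs 6 in EB and 5 in V6.5 ES. The median difference of EB from V6.5 ES was 0.22 for the neural list, with 4 higher and 2 lower of 6 detected. It was 0.13 for muscle, -0.01 for endoderm and -0.03 for blood and endothelium.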

How the data were processed

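Per the labels, total RNA was labelled with Hy5 and hybridised to 1 array per culture; RNA extraction is labelled with Trizol and with a column kit. The deposited scanner files hold, per the file headers, spots of a mouse set (version 19) and for each its intensity, the median over pixels, from which no background was subtracted. The authors also deposited a value table of intensity whose making is not given in the sources used here. Its columns followed the scanner values closely (Pearson r of at least 0.99998, across spots, which bright spots weigh most) and each had a median of 25, so they are scaled per array. Dim spots did not follow a single line: in ZHBTc4 ES miR-199a-5p and miR-143-3p both had 67 units, but deposited values of 15.4 and 24.1. How the background was handled in that table was not identified.

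Intensities were corrected with limma 3.58.1 in R 4.3.3 (normexp, saddle, offset 50), quantile-normalised over 1265 miRNA spots and put on the log2 scale. Taking off the local background was an alternative only, because it followed the spot signal (Spearman rho 0.559 to 0.775 across miRNAs per array). That choice was made with earlier results of these data known. The offset understates differences of dim spots. Where 1 of 2 arrays detected a spot, the fold is a bound against the higher of the dim spot and the lowest detected signal of its array. A difference between 2 single arrays has no test and describes those arrays. The 1 test was limma's lmFit and eBayes, EB against 4 ES arrays, with Benjamini-Hochberg adjustment at 0.05, tested on simulated data. The number of arrays limits the precision.

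The alternatives were local background, no correction, offset 16, median scaling, spike scaling, the authors' table and the negative control limit, and for the test also no filter and leaving out each ES array. Per the design rule all members were described, the 3 nearest miRNAs were named for members ranging over at least 1 log2 unit, and list members 2-fold apart were named. Examples from lists were chosen after their values were seen. Members and lists were chosen with earlier results of these data known. Sequences of 6 of 9 miRNAs were taken by name from RefSeq tables of GRCm38.p6. For miR-199b-5p no entry was found, and the miR-143 arms were left out before matching.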

Additional observations from a re-analysis of the deposited data

How the results depend on the processing

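The median difference of the 8 members from V6.5 ES moved by more than 1 SD of the PKM1 KI ES minus V6.5 ES differences (0.24) in 6 cases. It was 0.33 for EB with spike scaling, against 0.05. It was -0.59 for PKM1 KI ES in the authors' deposited table, against -0.26. For 2TS22c ES it was -0.67 with spike scaling and -1.73 in the authors' table, against -0.40. For ZHBTc4 ES it was -0.62 with spike scaling and -1.30 in the authors' table, against -0.30. The other medians stayed within that limit under the alternatives, of which the negative control limit leaves each measured difference between 2 arrays as it was and alters which spots count and the bounds. The limma count for EB against the ES arrays was 0 under all 13 settings, leave-one-out fits included (0 to 0), with a lowest adjusted p of 0.12 to 1. The fit without ZHBTc4 ES holds the arrays of the first chip alone.

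The count of all miRNAs at least 2-fold from V6.5 ES depended on the processing: 2 to 120 for EB (3 in the main processing), 3 to 84 for PKM1 KI ES (3), 36 to 300 for 2TS22c ES (40) and 30 to 260 for ZHBTc4 ES (34), and 1 to 36 for 2TS22c ES against ZHBTc4 ES (1). The main split was 24 higher and 16 lower in 2TS22c ES and 21 higher and 13 lower in ZHBTc4 ES. In 2TS22c ES it was 1 higher and 86 lower with spike scaling, 15 and 21 with median scaling and 29 and 271 with the authors' values. In ZHBTc4 ES it was 0 and 81 with spike scaling, 8 and 22 with median scaling and 28 and 232 with the authors' values. In EB it was 1 higher and 2 lower, and 20 and 1 with spike scaling. Members 2-fold lower than V6.5 ES numbered 0 in the main processing. The shares beside the next counts are of all miRNAs 2-fold lower. Without background correction there was 1 member in 2TS22c ES (2.74% of all) and 1 in ZHBTc4 ES (2.24%). With offset 16 there were 2 in 2TS22c ES (3.73%) and 1 in ZHBTc4 ES (2.61%). With spike scaling there were 2 in 2TS22c ES (10.7%) and 2 in ZHBTc4 ES (10.1%). With the authors' values there were 3 in PKM1 KI ES (5.15%), 6 in 2TS22c ES (33.7%) and 5 in ZHBTc4 ES (28.8%). The cause was not tested. No paired analysis was possible because each culture has 1 array and the labels give no replicate numbers.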
